A study of Mus musculus with 145 samples.

Results

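The regions described here are the stretches of mouse genome between annotated genes, outside chromosome 10, in which a piggyBac transposon was mapped in mammary tumours. A row of the authors' region table was taken when its type was intergenic and its chromosome was not 10, which gave 9987 intervals of 24036 regions in all. The other regions were 12557 gene regions outside chromosome 10, 658 intergenic intervals on chromosome 10, and the gene regions there. Chromosome 10 was left out because it carries the donor from which the transposon jumps. The intervals were named by the Entrez identifiers of the genes on either side, as the region table gives them. Both flanks had an Entrez identifier in 7561 intervals, and 2380 had at least 1 flank that is a transcript without one.

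Every mouse of both groups carried 4 alleles: WAP-Cre, a Cre-activated piggyBac transposase (LSL-PB), a Cre-activated oncogene (LSL-PIK3CA(H1047R)) and the transposon array ATP1. WAP is a milk protein gene whose promoter drives Cre in mammary cells from late pregnancy, so mating the mice switched on oncogene and transposase together, and the transposase mobilises ATP1. The untreated group held 94 tumours from 23 mice as the labels count them. The titles of 2 of these libraries name the same mouse and gland, the second marked R2, so they may be 1 tumour. They had 1 and 0 sites, and merging them changed 0 of the calls. The resistant group held 51 tumours from 25 mice given 30 mg/kg of BYL719 (alpelisib, an inhibitor of the PI3K alpha subunit) daily from a tumour volume of 250 mm3. They were called resistant by the study after growing at 3 or more measurements in a row, within 3 weeks on the drug. Several tumours came from 1 mouse, so tumours were not independent samples, and the mouse was read from the sample title, which gave 48 mice where the labels state 53. The titles have 4 forms, and no form held tumours of both groups (Tgtumor and Mouse were resistant, TgTum and tgTum untreated), so a difference between the groups and a difference between the title forms cannot be told apart.

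PiggyBac is a cut-and-paste DNA transposon that inserts at the 4 bases TTAA. In a screen of this kind the ATP1 transposon acts as a mutagen, since it carries promoter and splice elements that can drive a neighbouring gene and polyadenylation signals that can cut a transcript short. A gene region hit in many independent tumours is read as a candidate driver, and an intergenic interval can be hit for its regulatory elements, for a promoter near its edge, or because the transposase finds its chromatin open. The tests here compare an interval with its length alone and do not tell these apart.

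The letters at the integration sites are shown first, because TTAA was rare in 2 of the 3 intervals hit in most tumours, beside Lrrc4c and Mir101c, and in the called interval beside Cdon. Each line gives 8 letters as the deposited site table has them, the 4 of the target and the next 4, with a TTAA target in capitals. The first 6 lines are the site with most reads in 6 intervals described below, and the last 3 come from intervals where TTAA was rare: tgaaaaat stood at 6 of 208 sites beside Lrrc4c, ttcacgtc at 6 of 107 beside Mir101c, and tcagtgat at the site with most reads there.
Trps1 to Gm19303: TTAAtctt
Gm19303 to Eif3h: TTAAattt
Atl2 side: TTAAggtc
Hgf to Speer4f1: TTAAgaac
Bcl11a to 4933430M04Rik: TTAAacat
Itgb3 to Efcab3: TTAAagtc
Lrrc4c side: tgaaaaat
Mir101c side, first: ttcacgtc
Mir101c side, second: tcagtgat
TTAA stood at 95.8% of the 39513 sites in intergenic intervals and at 96.6% of the 40178 sites in gene regions. Of 2033 intervals with 5 or more sites, 1307 had TTAA at every site, and 6 had it at under 50% of sites.

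One of the highest ranked intervals lies between a pair of microRNA genes, Mir30a and Mir30c-2, whose mature sequences are given from RefSeq (GRCm38.p6), 5′ to 3′, with the seed (bases 2 to 8) in capitals.
mmu-miR-30a-5p: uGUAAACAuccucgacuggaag
mmu-miR-30c-5p: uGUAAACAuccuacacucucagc
mmu-miR-30a-3p: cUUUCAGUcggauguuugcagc
mmu-miR-30c-2-3p: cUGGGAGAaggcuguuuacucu
The 5p strands of both share the seed GUAAACA, by which microRNAs recognise their targets, and the 3p strands have different seeds. Both hairpins are on the plus strand of chromosome 1 (chr1:23272274-23272295 for miR-30a-5p and chr1:23291714-23291736 for miR-30c-5p), and the interval from 23272340 to 23289700 lies between them.

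Reads per library ranged from 51 to 1604360, with a median of 136932 in resistant and 48339 in untreated tumours. A site counted in a tumour at 10 or more reads, and a position and strand found in several tumours counted only in the one with most reads. This gave 101066 sites, of which 79924 were outside chromosome 10 and 39513 (49.4%) in intergenic intervals. At the threshold, 1188 sites in the intervals had exactly 10 reads and 1328 had 9. The number of sites per tumour outside chromosome 10 had a median of 366 (0 to 3041) in resistant and 320 (0 to 2415) in untreated tumours, and 3 tumours had none (1 resistant and 2 untreated). The reads carry no molecular identifiers and are PCR copies, so confidence intervals on shares of tumours cover counting error only.

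Intergenic intervals covered 52.3% of the 2593 Mb outside chromosome 10 and held 29.1 sites per Mb, against 42 sites per Mb in gene regions, which covered 36.9%. The intervals were hit 0.907 times as often as their length predicts in resistant and 0.963 times in untreated tumours, summed over intervals. The number of tumours hit was 1 in the median interval and 92 in the interval with most. Of the 9987, 8165 were hit in at least 1 tumour: 3663 in both groups, 1402 in resistant tumours alone and 3100 in untreated tumours alone. With 51 against 94 tumours and a median of 1 hit tumour, hits in 1 group alone do not mark an interval as particular to that group. The same counts over all regions were not made. The region table lists an interval only if at least 1 tumour had an insertion there by the authors' count, so short intervals enter it because they were hit. This touches the short class: the 2291 intervals under 20 kb were hit 2.14 times (resistant) and 2.47 times (untreated) as often as predicted, whereas the 578 of 500 kb or more were hit 0.837 and 0.859 times as often. Interval length ranged from 0.102 kb to 4420 kb, with a median of 49 kb.

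Over all intervals together, sites lay somewhat nearer to the edges than length predicts. The outer 10 kb at each edge made up 13.2% of the intervals' length and held 17.9% of their sites (17.7% in resistant, 17.9% in untreated tumours). Intervals under 20 kb lie wholly within these edges and enter the region table because they were hit. They held 1860 sites at 72.9 per Mb, and the shares were not computed without them. The siteless start of chromosomes, described below, adds length that is mostly far from an edge. RefSeq gene bodies, many of them predicted non-coding genes absent from the region table, covered 12.3% of the intervals' length and held 13.1% of their sites, so the label intergenic holds for the authors' gene set and not for every RefSeq gene. By chromosome, chromosome 15 had the densest intervals, with 41.7 sites per Mb, and among the autosomes chromosome 7 the sparsest, with 23.7. Chromosome X had 23 and chromosome Y 0.135 sites per Mb in these female mice.

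Which intervals were hit in more tumours than their length predicts was asked in each group by an exact Poisson-binomial test, in which each tumour's chance of a hit follows from its own number of sites. The answer was few: 4 intervals in resistant tumours, 12 in untreated tumours and 2 in both, at a Benjamini-Hochberg adjusted p under 0.05 over all 22544 regions outside chromosome 10. Over those regions 0.262% were called in resistant tumours, 0.461% in untreated tumours and 0.0932% in both. The intergenic shares were 0.0401% and 0.120%, and those of gene regions 0.438% (55 of 12557) and 0.733% (92 of 12557). The 14 intervals called in either group lie beside the transcription factor genes Trps1 and Bcl11a, beside the ligand gene Hgf and the receptor genes Bambi and Cdon, beside the pseudogene Pisd-ps3, and beside Sfi1, Atl2, Lrrc4c, Dhx15, Rad52, Prl8a6 and Gm19303. With 100 or more reads required at a site, 0 intervals were called in resistant and 6 in untreated tumours. The calls that held at 100 reads were those of both Pisd-ps3 flanks, Cdon, Lrrc4c and Rad52, all in untreated tumours. With mice in place of tumours, 3 and 6 were called. That count ended 8 calls: in resistant tumours Trps1 to Gm19303 (adjusted p = 0.0923) and Gm19303 to Eif3h (0.0574), and in untreated tumours Bcl11a (0.203), Hgf (0.580), Lrrc4c (0.754), Prl8a6 (0.331), Mir6417 (0.184) and Rad52 (0.0744). At an unadjusted p under 0.05 there were 330 intervals (3.30%) in resistant and 449 (4.496%) in untreated tumours. The share over all regions at this threshold was not computed, so these counts show nothing particular to the intervals.

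**Figure D1:**
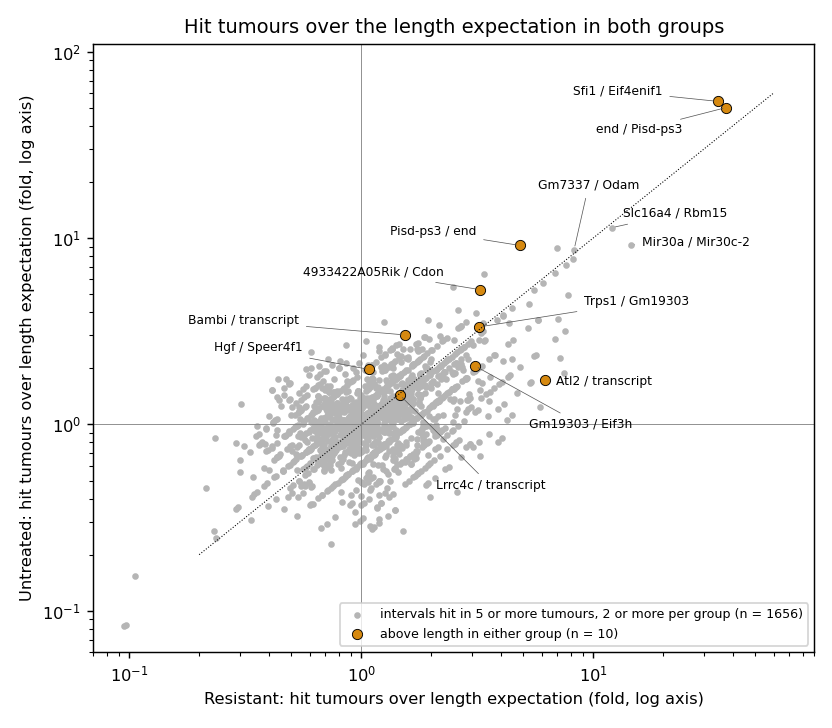
Each point is an intergenic interval hit in 5 or more tumours and in at least 2 of each group (1656 intervals), with its hit tumours over the length expectation in resistant (x axis) and untreated tumours (y axis), both on log axes; orange points were above length in either group (10 of the 14 called). The intervals beside Pisd-ps3 and Sfi1 stand furthest out, at 37.5-fold and 34.4-fold in resistant and 50.2-fold and 54.1-fold in untreated tumours, and the dotted line marks equal folds.

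Trps1 encodes a GATA-type zinc finger repressor of transcription that is abundant in luminal mammary cells, and its own region, which is no intergenic interval, had a site in 41 resistant tumours of 51 and in 73 untreated tumours of 94. The interval that starts at the end of the Trps1 region and runs to Gm19303 (chr15:50892042-51231639) was called in both groups over tumours, and over mice in untreated tumours alone. It was hit in 12 resistant tumours of 10 mice (23.5%, exact 95% interval 12.8 to 37.5) and in 20 untreated tumours of 15 mice (21.3%, 13.5 to 30.9). That is 3.23-fold over length in resistant (adjusted p = 0.0421) and 3.34-fold in untreated tumours (adjusted p = 0.000683). The shares of the groups overlapped within their intervals, and Fisher's exact test gave p = 0.835. The 49 sites had 10 to 409 reads, and 48 of them stood at TTAA.

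The next interval on the same side, from Gm19303 to Eif3h (chr15:51397611-51786562), was called in resistant tumours. Eif3h encodes a subunit of translation initiation factor 3. It was hit in 13 resistant tumours of 11 mice (25.5%, 3.09-fold, adjusted p = 0.0330) and in 14 untreated tumours of 10 mice (14.9%, 2.06-fold, adjusted p = 0.290). The difference between the groups was 10.6 percentage points, with an exact Fisher p = 0.125, so the call in 1 group alone does not show that the groups differ. The long interval on the other side of Trps1 was hit in 19 resistant and 28 untreated tumours and was called in neither group (1.51-fold, adjusted p = 0.678, and 1.33-fold, adjusted p = 0.639).

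Nearly every tumour with a site in these intervals also had one inside the Trps1 region. Of the 12 resistant tumours hit between Trps1 and Gm19303, 12 had a site in the Trps1 region, against 80.4% of all resistant tumours, and of the 20 untreated tumours 19 did, against 77.7% of all. These shares take no account of the number of sites per tumour. In 50 kb bins, 23 to 26 resistant and 29 to 45 untreated tumours had a site in each bin of the Trps1 region, whereas in the first 50 kb beyond it 5 resistant and 6 untreated tumours did. Counted against the density of sites within 1 Mb on either side, which includes the Trps1 region, the interval to Gm19303 fell to 0.479 in resistant and 0.565 in untreated tumours. The call in resistant tumours was lost with 9 of the 48 mice left out in turn (largest adjusted p = 0.215), and that between Gm19303 and Eif3h with 9 (0.303), while the untreated call was lost with 0 (0.00473).

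**Figure D2:**
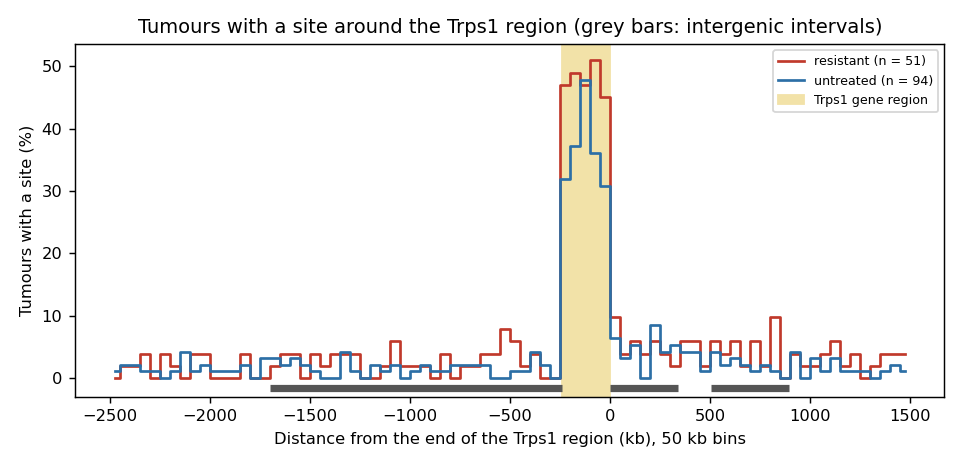
The share of tumours with a site in each 50 kb bin (y axis, %) is plotted by distance from the end of the Trps1 region (x axis, kb), for 51 resistant (red) and 94 untreated tumours (blue); the shaded band is the Trps1 region and the grey bars are intergenic intervals. The profile drops at the edge of the region, where 5 resistant and 6 untreated tumours had a site in the first 50 kb beyond.

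The interval beside Bcl11a, from that gene to 4933430M04Rik (chr11:24174825-24479908), was called in untreated tumours. Bcl11a encodes a zinc finger transcription factor of blood and mammary progenitor cells. It was hit in 15 untreated tumours of 11 mice (15.96%, 2.77-fold, adjusted p = 0.0466) and in 1 resistant tumour (1.96%, exact 95% interval 0.0496 to 10.4). By Fisher's exact test the shares had p = 0.0108 before and 1 after adjustment. The call was close to the threshold and was lost with 11 of 48 mice left out in turn (largest adjusted p = 0.166). The interval on the other side of Bcl11a, from Papolg, had the opposite order and was called in neither group. It was hit in 5 resistant and 3 untreated tumours (2.46-fold and 0.921-fold), so the order does not hold for both flanks of the gene.

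The intervals beside Hgf and Bambi were called in untreated tumours. Hgf encodes hepatocyte growth factor, the ligand of the receptor MET, and its interval to Speer4f1 (chr5:16619440-17474121) was hit in 27 untreated tumours of 15 mice (28.7%, 1.97-fold, adjusted p = 0.0312) and 9 resistant tumours (17.6%, 1.08-fold). Leaving out 8 of the 48 mice in turn ended the Hgf call (largest adjusted p = 0.113). Bambi encodes a decoy receptor of the TGF-beta family, and its interval on chromosome 18 was hit in 19 untreated tumours of 14 mice (20.2%, 3.02-fold, adjusted p = 0.00437) and 6 resistant tumours (11.8%, 1.54-fold). The Bambi interval kept an adjusted p of at most 0.0285 with any 1 mouse left out. Its other flank is a transcript without an Entrez identifier. Neither interval differed between the groups by Fisher's exact test (p = 0.163 and 0.253).

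In resistant tumours the interval beside Atl2 (chr17:79898124-80023407) was called. Atl2 encodes an atlastin, a GTPase that shapes the endoplasmic reticulum, and the next named gene on the other side is Hnrnpll, which encodes an RNA-binding splicing regulator. It was hit in 9 resistant tumours of 8 mice (17.6%, exact 95% interval 8.40 to 30.9) and 4 untreated tumours of 3 mice (4.26%, 1.17 to 10.5). This was 6.23-fold over length in resistant (adjusted p = 0.00515) and 1.73-fold in untreated tumours (adjusted p = 0.936). The difference of 13.4 percentage points had an exact Fisher p = 0.0123 and did not pass adjustment (adjusted p = 1). Of the 9 resistant hits, 8 were in tumours with Tgtumor titles and 1 in a tumour with a Mouse title. The call held with any 1 mouse left out (largest adjusted p = 0.0482). The authors' deposited table gave 11 resistant and 6 untreated tumours with an insertion there.

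Both flanks of Pisd-ps3, a pseudogene of phosphatidylserine decarboxylase on the unplaced scaffold JH584304, were hit far more often than their length predicts. The first 17986 bases of the scaffold, before the pseudogene, were hit in 8 resistant tumours of 7 mice (15.7%, 37.5-fold, adjusted p = 6.6e-08) and 17 untreated tumours of 13 mice (18.1%, 50.2-fold, adjusted p = 7.94e-21). The interval behind it, 52.8 kb long, was hit in 9 untreated tumours (9.12-fold, adjusted p = 0.000683) and 3 resistant tumours (4.84-fold, adjusted p = 0.754). TTAA stood at 28 of 28 and at 15 of 16 sites. The resistant fold before the pseudogene fell to 0 with 0.1% of a library's reads or its top 100 sites. The scaffold's regions end at 114452, so the density within 1 Mb was that of the rest of the scaffold, which includes the pseudogene. Against this density the fold before the pseudogene was 3.48 in resistant (adjusted p = 0.223) and 1.76 in untreated tumours (adjusted p = 0.464). Behind the pseudogene it was 0.264 in untreated tumours. The authors' deposited table gave 15 resistant and 44 untreated tumours before the pseudogene, with scores of 25.1 and 56.1 on its signed −log10 p scale. The short interval between Sfi1, a centrosome protein gene, and Eif4enif1, the gene of an eIF4E transport protein, was also far above length (chr11:3195464-3200352). It was hit in 5 untreated tumours of 5 mice (54.1-fold, adjusted p = 9.4e-05) and 2 resistant tumours (34.4-fold, adjusted p = 0.226). Its 7 sites had 139 reads in 1 resistant tumour and 11 to 26 reads in the other 6 tumours. By RefSeq coordinates Sfi1 itself, a coding gene, and the pseudogene Fau-ps2 overlap this interval.

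A further 3 intervals called in untreated tumours were hit in 7 or fewer of them and in 0 resistant tumours, where 0 of 51, taken as 3 counts, allows a share of up to 5.88%. Between the prolactin family genes Prl8a6 and Prl8a8 (chr13:27440689-27507071) 7 untreated tumours of 5 mice were hit (5.66-fold, adjusted p = 0.0493), at 11 to 299 reads. Between Mir6417 and the RNA helicase gene Dhx15 (chr5:52138018-52150202) 4 untreated tumours of 3 mice were hit, all with TgTum titles (17.4-fold, adjusted p = 0.0301). Between the recombination gene Rad52 and the kinase gene Wnk1 (chr6:119922824-119923968) 2 untreated tumours were hit, at more than 100 reads each (92.4-fold, adjusted p = 0.0493). The calls were lost with 6, 3 and 16 of the 48 mice left out in turn (largest adjusted p = 0.592, 0.525 and 0.532). The authors' deposited table gave 2 resistant and 14 untreated tumours with an insertion between Prl8a6 and Prl8a8. Between Mir6417 and Dhx15 it gave 1 resistant and 3 untreated tumours, and between Rad52 and Wnk1 0 resistant and 6 untreated tumours. That interval was thus listed only through the group in which it was called, and its fold and p-value are no independent support.

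**Figure D3:**
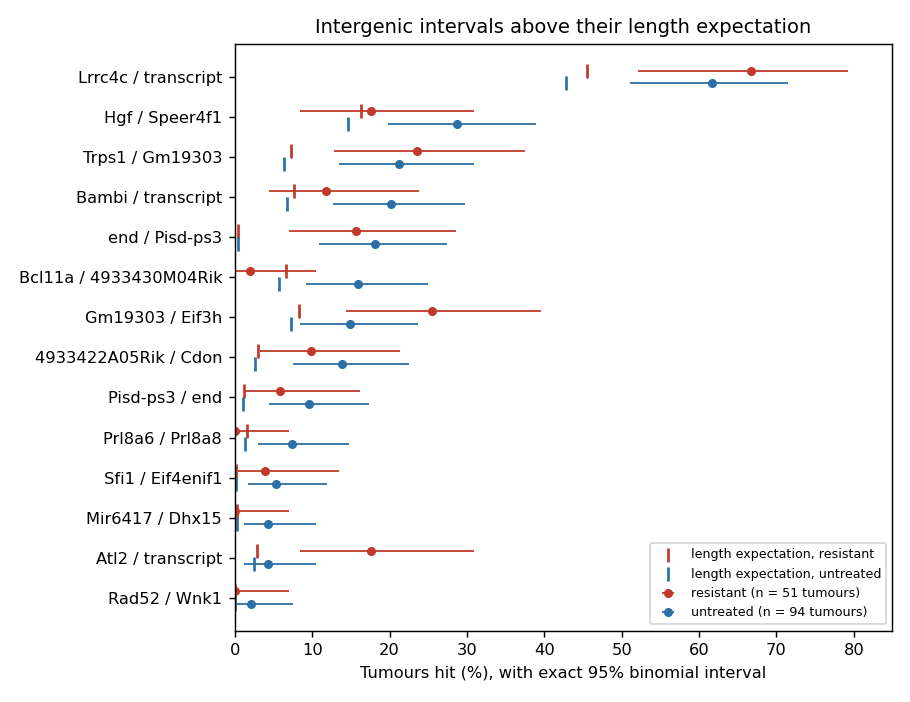
For the 14 intervals above their length expectation in either group, the share of tumours hit (x axis, %) is given with its exact 95% binomial interval for 51 resistant (red) and 94 untreated tumours (blue), and the vertical ticks are the shares that length predicts. The resistant share is above the untreated one for Atl2 (17.6% against 4.26%), Gm19303 to Eif3h (25.5% against 14.9%), Lrrc4c and Trps1 to Gm19303. All other intervals shown have the opposite order, among them Bcl11a to 4933430M04Rik at 1.96% against 15.96%.

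The interval hit in most tumours starts beside Lrrc4c, the gene of a netrin-G ligand of neurons, and spans 3836 kb of chromosome 2 (chr2:97631665-101467306). Hits were found in 34 resistant tumours (66.7%, 1.46-fold, adjusted p = 0.0787) and in 58 untreated tumours (61.7%, 1.44-fold, adjusted p = 0.00637). Of its 208 sites, 133 from 75 tumours lay between positions 98662234 and 98667334, and 0 of these 133 stood at TTAA. Of the 75 sites in the rest of the interval, 73 (97.3%) did. With TTAA sites alone the interval was hit in 16 resistant and 30 untreated tumours, below its length expectation at 0.713-fold and 0.764-fold. The authors' deposited table gave 28 resistant and 49 untreated tumours, with negative scores of −6.01 and −11.8.

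The interval from the start of chromosome 9 to Mir101c was hit in 64 tumours, 19 resistant (37.3%) and 45 untreated (47.9%), at 107 sites, of which 0 stood at TTAA. The largest had 8628 reads, 4.36% of its library's reads. All of its sites lay between positions 3000059 and 3035468, a span of 35.4 kb in an interval of 3039 kb. On the 20 chromosomes numbered 1 to 19 or named X the first deposited site lay between 3000010 and 3118806, so the first part of each chromosome held no site at all. Over its whole length the interval was hit 0.932-fold (resistant) and 1.28-fold (untreated) as often as predicted, and counted from the first site 40.9-fold and 60.9-fold. The authors' deposited table gave 1 resistant and 2 untreated tumours there.

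The interval between 4933422A05Rik and Cdon (chr9:35285424-35419123) was similar in its letters. Cdon encodes a co-receptor of Hedgehog signalling. There were hits in 13 untreated tumours of 10 mice (13.8%, 5.29-fold, adjusted p = 0.000683) and 5 resistant tumours (9.80%, 3.25-fold, adjusted p = 0.678). Of its 19 sites, 16 lay within 10 kb, 4 of them at TTAA, and the other 3 all stood at TTAA. With TTAA sites alone it was hit in 5 untreated and 2 resistant tumours and was no longer called (2.12-fold, adjusted p = 0.770, in untreated tumours). Over all 14 intervals, TTAA sites alone ended 3 of the calls, those of Lrrc4c, Cdon and Mir6417. They also added a call in untreated tumours, between 4930546C10Rik and Mir145b (5.70-fold, adjusted p = 0.0494). Whether the sites at other letters are integrations was not tested, and the hit counts of the Lrrc4c, Mir101c and Cdon intervals rest in large part or wholly on them.

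**Figure D4:**
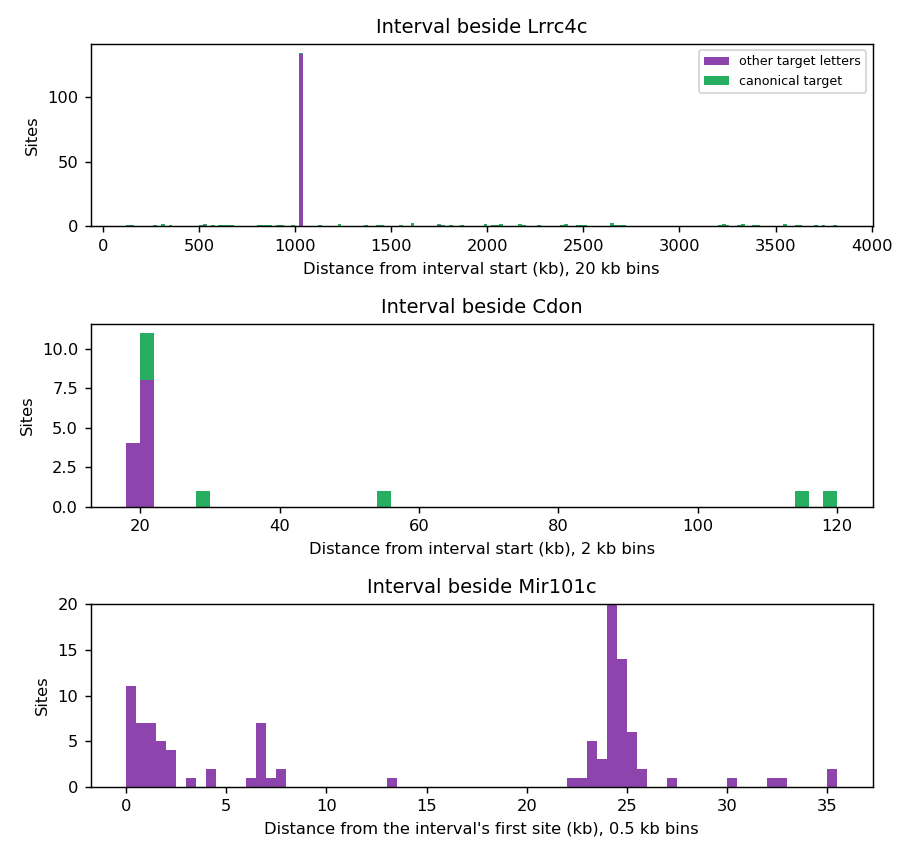
Sites per bin (y axis) along the intervals beside Lrrc4c, Cdon and Mir101c (x axis, kb from the interval's start or first site), with green for the canonical TTAA target and purple for other letters. Most sites beside Lrrc4c fall in a single bin of purple sites (133 of 208), and every site beside Mir101c is purple.

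The other intervals hit in most tumours were long ones, hit about as often as length predicts. Between Olfm4 and Pcdh17, genes of an olfactomedin and a protocadherin, 25 resistant and 39 untreated tumours were hit over 4420 kb (1-fold and 0.896-fold). Beside Slc10a2, the gene of the ileal bile acid transporter, 17 and 42 were hit (0.851-fold and 1.22-fold), and between 4930545E07Rik and the desmosome gene Dsc3 16 and 38 (0.911-fold and 1.27-fold). None of these was called in either group.

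Ranked by the smaller of their folds in the groups, the 1656 intervals hit in 5 or more tumours and in at least 2 of each group were led by the intervals beside Pisd-ps3 and Sfi1. After them came 10 short intervals, each hit in 2 or 3 resistant and 3 to 5 untreated tumours, and none of these 10 was called in either group. With so few hits the order moved with the processing: the smaller fold fell to 0 for 8 of the 12 with 100 or more reads, for 10 with 0.1% of a library's reads, for 8 without Tgtumor and for 6 without TgTum titles. Between Slc16a4, a gene of the monocarboxylate transporter family, and Rbm15, whose RNA-binding protein guides RNA methylation, 2 resistant and 3 untreated tumours were hit in 14 kb of chromosome 3 (12-fold and 11.4-fold). By RefSeq coordinates Rbm15 itself overlaps this interval. The miR-30 interval was hit in 3 resistant tumours of 3 mice and 3 untreated tumours of 3 mice, 14.6-fold and 9.17-fold over length (adjusted p = 0.191 and 0.254). Its resistant sites had 16, 35 and 61 reads and its untreated sites 10, 18 and 74, and all 6 stood at TTAA. The reads of the groups overlapped.

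Between Gm7337 and Odam (chr5:87853013-87883694), 28.6 kb past the casein gene Csn1s2b, 3 resistant tumours of 3 mice and 5 untreated tumours of 5 mice were hit (8.28-fold, adjusted p = 0.426, and 8.67-fold, adjusted p = 0.0551). Caseins are the main milk proteins of the mammary gland. The resistant sites had 20, 32 and 114 reads and the untreated sites 15, 23, 32, 67 and 388. A neighbouring interval of the ranking, between Gm7714 and Prol1 (chr5:88282836-88315311), was hit in 3 resistant and 3 untreated tumours (7.82-fold and 4.92-fold). The other ranked intervals were those between the Skint8 and Skint7 genes of a thymic selection family (8.21-fold and 7.75-fold), between the natural killer cell receptor gene Klrg1 and the mannose phosphate receptor gene M6pr (7.62-fold and 7.19-fold), and between Lyg1 and Txndc9 (7.01-fold and 8.82-fold). Skint8 itself overlaps the first of these by RefSeq coordinates. Beside the sorting nexin gene Snx16 the folds were 6.87 and 6.48, between Hmgcll1 and Gfral, the gene of the GDF15 receptor, 6.09 and 5.75, and beside Dhrsx on an unlocalised scaffold of chromosome 4 5.56 and 5.24.

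Among intervals hit in 3 or more resistant tumours, the highest resistant fold after Pisd-ps3 was between Asic5 and Gucy1b1 (chr3:82021234-82032003), where 3 resistant tumours of 3 mice and 0 untreated tumours were hit (23.5-fold, adjusted p = 0.0820). Gucy1b1 encodes a subunit of soluble guanylate cyclase. The 3 sites had 20, 86 and 560 reads, and 0 of 94 untreated tumours, taken as 3 counts, allows a share of up to 3.19%. Between the odorant receptor genes Olfr305 and Olfr304 3 resistant tumours were hit (13.1-fold, adjusted p = 0.222), and between Smim3 and the dynactin gene Dctn4 3 resistant and 1 untreated (12.5-fold, adjusted p = 0.239, in resistant tumours). Smim3 itself overlaps the interval to Dctn4 by RefSeq coordinates. In untreated tumours the interval between 9130008F23Rik and Glyatl3 was hit in 4 tumours of 4 mice (9.58-fold, adjusted p = 0.108). The authors' deposited table gave 3 resistant and 0 untreated tumours for the Asic5 and Olfr305 intervals, and 0 and 5 for the Glyatl3 interval. These intervals were thus listed only through the group in which their fold is high, so fold and p-value are no independent support.

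Whether intervals were hit in a different share of tumours in the groups was tested with Fisher's exact test on the 4157 regions hit in 5 or more tumours, 1964 of them intergenic. None passed adjustment: 0% of the 4157 regions and 0 of the 1964 intervals, with a smallest adjusted p of 0.906 among the intervals. At an unadjusted p under 0.05 there were 36 intervals, 31 higher and 5 lower in resistant tumours. This split does not show a direction, because the resistant group was smaller and hits in it alone reach a small p more easily. Beside Arsj 6 resistant and 0 untreated hits gave Fisher's exact p = 0.00155, whereas beside Prl8a6 0 resistant and 7 untreated hits gave 0.0522. The same split over all regions was not computed. The intervals with the smallest p in each direction are given as values that failed the correction. Between Itgb3, the gene of an integrin beta subunit, and Efcab3 (chr11:104670472-105064834) 11 resistant tumours of 8 mice (21.6%, exact 95% interval 11.3 to 35.3) and 3 untreated tumours of 3 mice (3.19%, 0.663 to 9.04) were hit, a difference of 18.4 percentage points (Fisher's exact p = 0.000654). Of the 11 resistant hits 10 had Tgtumor titles. Beside Arsj, an arylsulfatase gene, 6 resistant tumours of 6 mice and 0 untreated tumours were hit (exact p = 0.00155), all 6 with Tgtumor titles. Between Bnc2, a zinc finger gene, and Cntln, a centrosome gene, 9 and 3 were hit (exact p = 0.00415), and again all 9 had Tgtumor titles. Between Vgll3, the gene of a cofactor of TEAD transcription factors, and the adhesion gene Cadm2 16 resistant tumours (31.4%) and 12 untreated tumours (12.8%) were hit (exact p = 0.00867). The authors' deposited table gave 14 resistant and 11 untreated tumours for the Itgb3 interval, and 12 and 3 for the Arsj interval. For the Bnc2 interval it gave 9 and 4, and for the Vgll3 interval 18 and 20.

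Lower in resistant tumours, beside the Bcl11a interval, was that between the vesicle gene Bet1 and the collagen gene Col1a2, hit in 1 resistant and 12 untreated tumours (exact p = 0.0334). Between Pom121l12 and Vstm2a 9 resistant and 33 untreated tumours were hit (17.6% and 35.1%, exact p = 0.0346), and beside the glutamate receptor gene Gria3 on chromosome X 5 and 23 (9.80% and 24.5%, exact p = 0.0461). The groups differed in sites per tumour too (medians of 366 and 320), and Fisher's test takes no account of that.

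The strand of insertion was tested in the intervals hit in 6 or more tumours, 1 site per tumour, by an exact binomial test. Of 3311 regions 0% passed adjustment, and 0 of 1614 intervals, with 38 at an unadjusted p under 0.05. Plus-strand sites made up 50.4% of sites in intervals and 50.02% in gene regions. In the Lrrc4c interval 59 of 92 tumours had the plus strand (unadjusted exact p = 0.00878), counted over sites at all letters.

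Each tumour's share of sites in intergenic intervals was lower in resistant tumours. It was 48.8% ± 3.17 (SD, n = 50 tumours with a site, range 42.7 to 55.9) against 51.9% ± 8.57 in untreated tumours (n = 92, range 33.3 to 100), a difference of −3.17 percentage points (permutation test over 48 mice, two-sided, p = 0.00279). The extremes were tumours with few sites: the 11 tumours with under 50 sites spanned 33.3% to 100%. Among tumours with 50 or more sites the shares were 48.9% ± 3.15 (n = 46) and 50.7% ± 2.76 (n = 85), a difference of −1.75 points (permutation p = 0.00332). The groups overlapped widely, and since no title form holds both groups the share cannot be compared within a form. By form it was 48.4% ± 3.14 in Tgtumor (n = 35), 49.6% ± 3.20 in Mouse (n = 15), 52.6% ± 10.2 in TgTum (n = 59) and 50.7% ± 4.10 in tgTum tumours (n = 33). Without the TgTum tumours the difference was −1.91 points (permutation p = 0.0781) and without the Tgtumor tumours −2.47 points (p = 0.109).

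**Figure D5:**
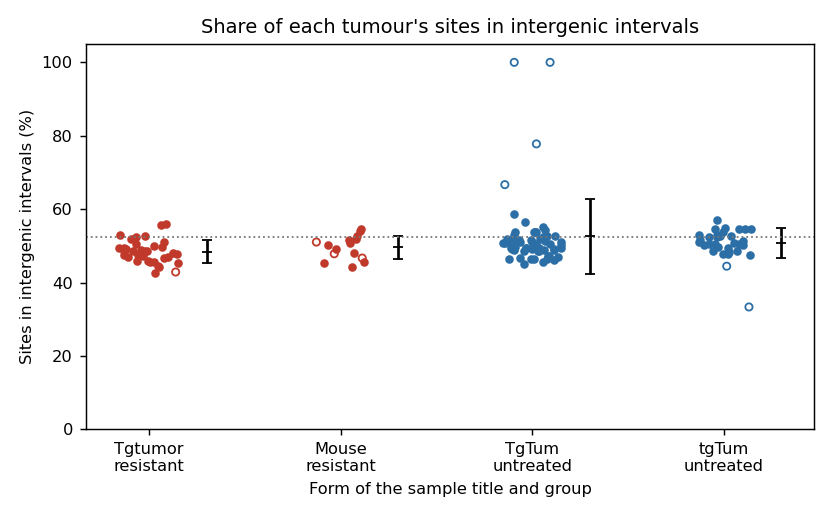
Each point is 1 tumour, with the share of its sites in intergenic intervals (y axis, %) by the form of its sample title (x axis), resistant in red and untreated in blue; open points have under 50 sites, black bars are mean ± SD, and the dotted line is the intervals' 52.3% of length. The points at 100% are open, and the resistant means of 48.4% and 49.6% lie under the untreated means of 52.6% and 50.7%.

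The reads of a site rise with the number of cells that carry the insertion and with its amplification by PCR. The share of sites with 100 or more reads was 31.6% ± 28.3 among intergenic and 32.3% ± 29.1 among gene region sites of the same tumour (mean ± SD, n = 133 tumours with 10 or more sites of each kind). The mean difference over 48 mice was −1.21 percentage points (sign permutation test over mice, two-sided, p = 0.0652), with 67 tumours lower and 58 higher in intergenic sites. The difference did not pass the threshold.

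The intervals that border known genes were read in 5 gene lists, each beside the medians over all 9987 intervals, which were 0.275-fold in resistant and 0.898-fold in untreated tumours. Of all 9987, 3552 had a fold above 1 in resistant and 4620 in untreated tumours. In all, 1964 were hit in 5 or more tumours, and 4 were called in resistant and 12 in untreated tumours. An interval with 0 hits has a fold of 0, which is more likely the shorter it is. The lists were not matched to all intervals in length, so a higher median does not show enrichment. Of 20 genes near which mouse mammary tumour virus inserts, 16 bordered 20 intervals, 7 hit in 5 or more tumours and 0 called, with median folds of 0.328 and 1.06. The largest resistant fold among those 7 was beside the kinase gene Map3k8, hit in 5 resistant and 4 untreated tumours (2.93-fold and 1.46-fold). Folds above 1 were found for 7 of the 20 intervals in resistant and 11 in untreated tumours. An interval beside Rspo2 was below length in both groups, hit in 3 resistant and 3 untreated tumours (0.863-fold and 0.535-fold). Of 30 mammary lineage transcription factor genes, 25 bordered 38 intervals with median folds of 1.09 and 0.938, of which 1 was called in resistant (beside Trps1) and 2 in untreated tumours (beside Trps1 and Bcl11a). Folds above 1 were found for 22 of the 38 in resistant and 18 in untreated tumours. Beside Gata3, the gene of the luminal cell regulator, 3 resistant and 13 untreated tumours were hit (1.05-fold, and 2.82-fold with adjusted p = 0.0759). Beside Grhl2, which encodes a regulator of epithelial junctions, 5 and 10 were hit (2.34-fold and 2.92-fold, adjusted p = 0.924 and 0.16), and beside Runx1 13 and 12 (2.40-fold and 1.36-fold, adjusted p = 0.182 and 0.892). Other members of this list were below length in both groups, such as that between Lmo4 and Hs2st1, hit in 1 resistant and 2 untreated tumours (0.397-fold and 0.495-fold).

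Of 25 growth and survival oncogenes, 19 bordered 26 intervals, 14 hit in 5 or more tumours and 0 called (median folds 0.753 and 1.28). Folds above 1 were found for 11 of the 26 in resistant and 16 in untreated tumours. Between Birc3, an inhibitor of apoptosis gene, and Yap1, the effector of Hippo signalling, 5 resistant and 2 untreated tumours were hit (7.50-fold and 1.88-fold, adjusted p = 0.104 and 1). Between Cav1 and Met, the gene of the receptor for HGF, 4 and 3 were hit (2.87-fold and 1.35-fold), and beside Myc 6 and 3 (2.57-fold and 0.800-fold), and neither interval was called. Others were below length in both groups, such as that between Ccnd1 and Tpcn2, hit in 2 resistant and 4 untreated tumours (0.741-fold and 0.922-fold). Of 26 tumour suppressors, 17 bordered 26 intervals, 6 hit in 5 or more tumours and 0 called (median folds 0.645 and 0.984). Folds above 1 were found for 10 of these 26 in resistant and 13 in untreated tumours. Beside Rasa1, the gene of a RAS GTPase activator, 10 resistant and 13 untreated tumours were hit (1.33-fold and 1.06-fold), and beside Spred1, which encodes a brake on RAS signalling, 5 and 5 (2.15-fold and 1.34-fold). Others were below length in both groups, such as that between Gm12295 and Map2k4, hit in 2 resistant and 6 untreated tumours (0.466-fold and 0.863-fold).

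The last list held 15 genes that earlier results of these data had found hit, so its direction is no independent evidence. Of these, 12 bordered 18 intervals, with median folds of 1.47 and 1.35, and 2 were called in resistant and 3 in untreated tumours, all beside Trps1 or Pisd-ps3. Beside Ctnnd2, which encodes a delta-catenin, 11 resistant and 27 untreated tumours were hit over 1699 kb, close to length (0.784-fold and 1.14-fold).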

How the data were processed

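Sites were read from the authors' deposited site table, which holds whole-number read counts per library, not normalised as far as the values show. The submitters' processing notes name mm10 as the build. The aligner and the site caller are not given in the sources used here. Regions came from a table of the authors, whose hit tumours and signed −log10 score per the file headers were only copied. A further 725 per-library columns were not used. Sites and regions were joined in Python 3.11.15 with pandas 2.3.3, and tests used SciPy 1.17.1. Each tumour's chance of hitting a region was 1 − (1 − length share) to the power of its number of sites outside chromosome 10. Tests were adjusted over all regions outside chromosome 10 and were checked on simulated data. Permutations numbered 100000. Intervals were named by these rules: the 12 with the highest smaller fold, the 5 hit in most tumours, the 5 with the highest fold in each group (3 or more resistant or 4 or more untreated hits), the 4 with the smallest Fisher p in each direction, called intervals, and examples per gene list. The intervals and gene lists were chosen with earlier results of these data known. Confidence intervals are exact (Clopper-Pearson, 95%). Alternatives are given in the closing section.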

Additional observations from a re-analysis of the deposited data

How the results depend on the processing

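Counts of intervals above length depended on the processing (4 in resistant, 12 in untreated tumours, 2 in both). With 100 or more reads they were 0, 6 and 0, with 0.1% of a library's reads 0, 2 and 0, and with each library's top 100 sites 0, 2 and 0. With 3 or more reads they were 10, 14 and 5. Positions kept in every tumour gave 17, 15 and 3, with 5 intervals past Fisher's test between groups, against 0 in every other setting run. Positions within 10 bp counted as 1 site gave 6 in untreated tumours. Expectations from intergenic sites gave 7 in resistant tumours, from the density within 1 Mb 2, 3 and 1, with adjustment over intergenic intervals alone 2, 7 and 1, and with mice 6 in untreated tumours and 1 in both. Without Tgtumor titles they were 1 in resistant tumours and 1 in both, without TgTum titles 1 in untreated tumours and 1 in both, and without Mouse titles 1 in both. Without tgTum titles they were 5, 9 and 3, and the untreated calls of Bcl11a, Prl8a6, Bambi, Hgf and Rad52 were lost. Chromosomes counted from their first deposited site (added after seeing the data) gave 5, 10 and 3, with Bcl11a, Prl8a6 and Rad52 lost and Mir101c called in both groups (adjusted p = 1.55e-23 and 4.76e-69). With each mouse left out (added after seeing the data) they ranged from 2 to 6, 8 to 13 and 1 to 3.

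The intergenic share fell to differences of −1.91 and −2.47 points without TgTum or Tgtumor titles, and kept its direction in every other setting. The difference in sites of 100 or more reads passed its threshold at −1.87 points with 3 or more reads, at −1.73 with positions kept in every tumour and at −1.62 without tgTum titles. Among the called intervals, folds turned below 1 for Lrrc4c (0.851 with positions within 10 bp as 1, 0.764 with TTAA only), and with the local density for Trps1 to Gm19303 (0.479 and 0.565), Gm19303 to Eif3h (0.486) and the far side of Pisd-ps3 (0.264). A fold of 0 was reached by Sfi1 with 100 or more reads, by Pisd-ps3 in resistant tumours with 0.1% of reads and with the top 100 sites, by Mir6417 and Rad52 with the top 100 sites, and by Mir6417 without TgTum titles. The smaller fold of the 12 ranked intervals moved for 8 with 100 or more reads, 10 with 0.1% of reads, 10 with the top 100 sites, 8 without Tgtumor titles and 6 without TgTum titles. The causes were not tested. An expectation from TTAA counts was not run, for want of a genome sequence. Resistant tumours could not be paired with untreated ones, because no mouse held tumours of both groups and replicate numbers only follow the order of the samples. Few sites limit short intervals: 2 hits sufficed for a call beside Rad52.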
